A study of Mus musculus with 24 samples.

Results

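The 6 libraries described here compare HY19636 cells labelled as lacking the first enzyme of serine synthesis and given no serine, grown together with hepatocytes (coculture, 3 libraries) or alone (monoculture, 3 libraries). HY19636 is a mouse pancreatic ductal adenocarcinoma line. The cells of all 6 libraries were labelled as knockout (KO) for Phgdh and were kept in medium that lacked both serine and glycine, which is called starved here. The libraries were taken by these labels from a series of 24 RNA-seq libraries, in which genotype (KO or wild type, WT), serine and glycine in the medium (fed or starved) and hepatocytes were fully crossed in 8 groups of 3. All genes of the deposited table were considered, and 12061 of 54532 reached 1 FPKM (fragments counted per kilobase of a gene and corrected for library depth) in at least 3 of the 24 libraries and were tested. By its title the series is about serine that hepatocytes supply to pancreatic cancer in the liver. The comparison therefore addresses what hepatocytes change in cancer cells labelled as Phgdh KO and kept without serine and glycine. The labels do not say that these cells depend on serine from outside. Starved WT cells and fed KO cells, each with and without hepatocytes, are used for comparison. Not given in the sources used here is how the cancer cells were parted from the hepatocytes, how long they shared a culture, whether the KO cells are 1 clone and which part of Phgdh was edited. Nothing in the labels says that replicates are separate cultures, and p-values therefore reflect only how far these libraries spread, which can be technical.

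Serine is made from a glycolytic intermediate by Phgdh, Psat1 and Psph in turn, and is taken up from outside by amino acid transporters. It gives glycine and one-carbon units for nucleotide synthesis, the head group of phosphatidylserine and the backbone of sphingolipids. Cells that lack an amino acid are known to raise genes of the transcription factor ATF4, while cells in low oxygen are known to raise glycolytic genes through the hypoxia-inducible factors. Sterol-regulated factors of the SREBP family switch on cholesterol and fatty acid synthesis genes, and E2F factors switch on the genes of DNA replication.

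Phgdh itself was measured first. It read 616, 732 and 737 FPKM in the starved KO monocultures and 817, 606 and 726 FPKM in the starved KO cocultures, and these groups overlapped (log2 change 0.037 ± 0.12, adjusted p = 0.788). The starved WT cells stood at 789, 818 and 794 FPKM alone and at 1405, 1278 and 1249 FPKM with hepatocytes. The fed KO cells stood at 372, 548 and 529 FPKM alone and at 885, 869 and 868 FPKM with hepatocytes. The KO label therefore cannot be checked from this transcript, which remained abundant in every KO library. Phgdh rose with hepatocytes in starved WT cells (log2 change 0.71 ± 0.12, adjusted p = 9.44e-05) and in fed KO cells (0.88 ± 0.12, adjusted p = 5.86e-06). The change in starved KO cells was less positive than both, with log2 differences of -0.67 (adjusted p = 0.00158) and -0.84 (adjusted p = 2.33e-04). Under quantile normalization the Phgdh change in starved KO cells was -0.41 with an adjusted p of 0.000358.

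The 6 libraries held 15740081 to 19044371 reads in genes. Replicates were more alike in monoculture, where 133 to 166 genes differed by 2-fold or more within a pair, than in coculture, where 190 to 395 did, the most between coculture replicates 1 and 2. Signal from hepatocytes was close to nil. Of 29 hepatocyte markers, 17 had no read in any of the 6 libraries, Alb (albumin) had 1 read in the 3 monocultures and 6 in the 3 cocultures, Asgr1, a hepatocyte surface receptor, had 2 and 50, and only Hnf4a reached the level for testing. The summed level of the list was 18.3 to 20.2 FPKM in monoculture and 38.0 to 41.4 FPKM in coculture, nearly all of it Hnf4a, which the cancer cells also had without hepatocytes. Markers of macrophages, endothelial cells and stellate cells were low. Of 15 macrophage markers 12 had no read in the 6 libraries, while Cd68 went from 55 to 247 reads. Of 13 endothelial markers 2 had no read, and the summed level was 0.264 to 0.422 FPKM in monoculture and 1.36 to 1.88 FPKM in coculture, with Cdh5 going from 2 to 186 reads and Vwf from 23 to 269. Of 13 stellate cell and fibroblast markers 7 had no read, and Pdgfra made up most of a sum of 0.350 to 0.454 FPKM alone and 1.91 to 2.47 FPKM with hepatocytes. Markers of bile duct cells, many of which ductal tumour cells also express, were not low. Their summed level was 981 to 1012 FPKM in monoculture and 2057 to 2162 FPKM in coculture, with 5 of 8 tested members higher and 2 lower, most of it Krt19 (mean 269 and 1280 FPKM) and Spp1, osteopontin (519 and 644 FPKM), while Sctr, the secretin receptor, had no read and Cftr, a chloride channel, stayed under 1 FPKM. Fed KO monocultures, which had no hepatocytes, also held some of these transcripts. Their mean FPKM was 3.44 for Cd68, 1.16 for Vwf, 1.28 for Pdgfra, 0.415 for Cdh5 and 0.133 for Asgr1. In the starved KO cocultures the means were 3.80, 0.327, 2.15, 0.859 and 0.625. What the levels of these other cell types' markers add to the results was not tested. The labelled ductal tumour cells expressed Krt8, Krt18, Krt19, Krt7, Cdh1, Sox9 and Spint2, whereas Epcam, Cldn4 and Spint1 stayed under 1 FPKM in each of the 6 libraries. In bulk RNA, fewer cells in a state and less RNA per cell cannot be told apart.

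Coculture changed most of the measured transcriptome of the starved KO cells. Of 12061 genes, 8594 (71.3%) passed the limma test at an adjusted p under 0.05, 4221 (35%) higher and 4373 (36.3%) lower. By 2-fold or more 1299 genes (10.8%) rose and 1030 (8.54%) fell, and by 4-fold or more 236 rose and 50 fell. The values of the 3 cocultures and 3 monocultures did not overlap for 8389 genes (69.6%). Absence of overlap in genes named below is to be read against that share, as most were named for large changes. The median log2 change over all tested genes was -0.0064. Median centring set each library to the median of the genes at 5 FPKM or more in all 24 libraries. It shifted changes by 0.144, which moved the median over all tested genes to 0.138, with 5034 genes then higher and 3487 lower.

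Hepatocytes changed fewer genes in the matched settings. In starved WT cells 3386 genes (28.1%) passed, 1800 higher (14.9%) and 1586 lower (13.1%). In fed KO cells 4824 (40%) passed, 2429 higher (20.1%) and 2395 lower (19.9%). When only the groups compared were fitted, the count in fed KO cells was 2840 and that in starved WT cells 4521. Replicate 1 of the fed KO monocultures stood apart, with correlations of 0.967 and 0.970 with replicates 2 and 3, against 0.993 between those. Without it 4493 genes passed in fed KO cells. With voom on recovered reads, the splits were 1375 higher and 2625 lower in starved WT cells and 2011 higher and 3299 lower in fed KO cells. By 2-fold or more, 269 genes rose (2.23%) and 48 fell (0.398%) in starved WT cells, and 371 rose (3.08%) and 32 fell (0.265%) in fed KO cells. The change with hepatocytes differed between starved KO and starved WT cells for 7343 genes (60.9%), 3586 more positive (29.7%) and 3757 more negative (31.1%) in KO cells. Between starved and fed KO cells it differed for 6962 genes (57.7%), 3365 more positive (27.9%) and 3597 more negative (29.8%) in starved cells. Median centring moved these splits to 4488 and 2796 and to 4302 and 2704. Of the 2329 genes that passed with a change of 2-fold or more in starved KO cells, 659 (28.3%) also passed with the same sign in starved WT cells, 272 (11.7%) passed with the opposite sign and 1398 did not pass. In fed KO cells 1073 of them (46.1%) passed with the same sign and 205 (8.80%) with the opposite sign. The starved WT and the fed KO comparison share no library with the starved KO comparison, whereas both tests of a difference include its 6 libraries.

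**Figure D1:**
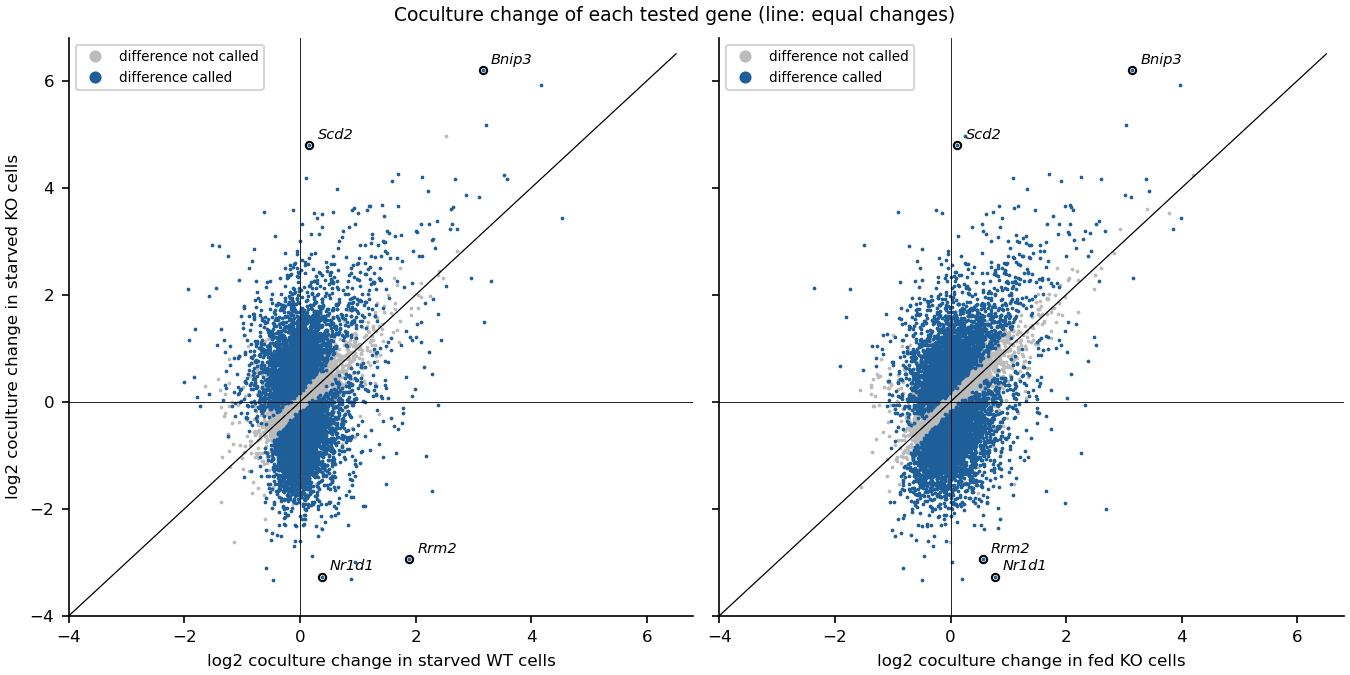
Log2 coculture change of each of 12061 tested genes in starved KO cells (vertical) against the change in starved WT cells (left, horizontal) and in fed KO cells (right, horizontal), on the log2(FPKM + 1) scale. Blue points are genes whose change differed between the settings (7343 and 6962), grey points the rest, and the line marks equal changes. Most of the cloud is taller than it is wide, with Scd2 near 0 on both horizontal axes.

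Of the 12 genes with the largest rises on the log2(FPKM + 1) scale used for every log2 value here 4, Bnip3, Egln3, Pdk1 and P4ha2, belong to the list of hypoxia-response genes, and the first 3 genes were nearly silent in monoculture. Bnip3, a mitochondrial receptor for mitophagy at chr7:138890836-138909519 (GRCm38), read 0.729, 0.665 and 1.11 FPKM in the monocultures and 122, 135 and 139.9 FPKM in the cocultures (log2 change 6.19 ± 0.069, adjusted p = 4.57e-22). Egln3, an oxygen-sensing prolyl hydroxylase at chr12:54178981-54203860, read 0.257, 0.371 and 0.353 FPKM in the monocultures and 78.7, 79.4 and 80.4 FPKM in the cocultures (log2 change 5.92 ± 0.072, adjusted p = 7.25e-22). Cyp2s1, a cytochrome P450 at chr7:25802475-25816913, read 0.173, 0.137 and 0.140 FPKM in the monocultures and 40.6, 38.5 and 42.8 FPKM in the cocultures (log2 change 5.18 ± 0.060). Absence of overlap between the 3 cocultures and 3 monocultures was a condition for naming the 12 largest rises and 12 largest falls, so it is no result about them. Pdk1, the kinase that holds pyruvate back from the mitochondria, read 1.02, 0.694 and 0.564 FPKM in the monocultures and 31.5, 31.7 and 33.5 FPKM in the cocultures (log2 change 4.25 ± 0.076). P4ha2, a collagen prolyl hydroxylase subunit, read 0.702, 0.974 and 0.744 FPKM in the monocultures and 29.1, 33.8 and 31.6 FPKM in the cocultures (log2 change 4.17 ± 0.070). All 5 genes also rose in starved WT and in fed KO cells. Their rise was larger in starved KO cells than in both, with log2 differences from starved WT cells of 3.03 for Bnip3 and 1.48 for P4ha2 (adjusted p = 7.16e-15 and 2.16e-10).

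Scd2, a stearoyl-CoA desaturase at chr19:44293676-44306864 that puts the double bond into fatty acids, read 12.9, 13.7 and 13.8 FPKM in the monocultures and 428, 365 and 410.1 FPKM in the cocultures (log2 change 4.79 ± 0.066, adjusted p = 4.10e-21). It was 29.8-fold higher in mean FPKM. Among the 8 groups, only the starved KO monocultures had low Scd2. Mean FPKM was 631 ± 70.9 (SD, n = 3) in fed KO monocultures and 428 ± 8.68 in starved WT monocultures, and the other 7 group means ran from 397 to 682 FPKM. Hepatocytes changed Scd2 by 0.16 ± 0.066 in starved WT cells (adjusted p = 0.0782) and by 0.12 ± 0.066 in fed KO cells (adjusted p = 0.168). Cidec, a lipid droplet protein, read 0.491, 1.04 and 0.878 FPKM in the monocultures and 31.7, 27.7 and 31.9 FPKM in the cocultures (log2 change 4.13 ± 0.14). Selenbp1, a selenium-binding methanethiol oxidase, read 0, 0.0686 and 0.193 FPKM in the monocultures and 23.1, 16.7 and 19.3 FPKM in the cocultures (log2 change 4.24 ± 0.14). The Selenbp1 change did not differ from that in fed KO cells past the threshold (4.20 ± 0.14 there, adjusted p of the difference 0.873). Prl2c3, a prolactin-family gene, read 53.2, 47.7 and 51.1 FPKM in the monocultures and 860.3, 997 and 1005 FPKM in the cocultures (log2 change 4.21 ± 0.14), and since near-identical copies of it exist its level is uncertain. Lrrc66 read 0.598, 0.738 and 0.678 FPKM in the monocultures and 27.8, 31.0 and 29.0 FPKM in the cocultures (log2 change 4.18 ± 0.071).

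The largest falls joined a transcription factor, a growth factor, a clock repressor and genes of DNA synthesis and ribosome assembly. Plagl1, an imprinted zinc-finger transcription factor at chr10:13060504-13131694, read 38.2, 37.8 and 40.2 FPKM in the monocultures and 2.16, 3.40 and 3.42 FPKM in the cocultures (log2 change -3.33 ± 0.11, adjusted p = 2.42e-15). Ereg, the growth factor epiregulin at chr5:91074622-91093646, read 172, 145 and 152 FPKM in the monocultures and 13.4, 16.6 and 14.4 FPKM in the cocultures (log2 change -3.32 ± 0.13, adjusted p = 1.71e-14). Nr1d1, the clock repressor REV-ERBα at chr11:98767932-98775333, read 123, 152 and 144 FPKM in the monocultures and 13.7, 13.9 and 13.0 FPKM in the cocultures (log2 change -3.27 ± 0.10, adjusted p = 9.44e-16). Each of the 3 was several-fold lower in every coculture than in any monoculture. Rrm2, the ribonucleotide reductase subunit that limits deoxynucleotide supply and lies at chr12:24708241-24714146, read 56.9, 50.4 and 48.3 FPKM in the monocultures and 5.32, 6.01 and 6.35 FPKM in the cocultures (log2 change -2.94 ± 0.12, adjusted p = 5.49e-14). Pclaf, a PCNA-binding replication factor, read 20.5, 16.9 and 17.8 FPKM in the monocultures and 1.42, 1.33 and 1.56 FPKM in the cocultures (log2 change -2.99 ± 0.11). Ereg, Rrm2 and Pclaf rose with hepatocytes in starved WT cells, by 0.88, 1.88 and 0.96. Cdca7, which is known as a Myc and E2F target, changed by -2.51 ± 0.082 and Fam111a, a protease that acts at replication forks, by -2.51 ± 0.13. Uck1, a uridine-cytidine kinase, read 59.3, 70.3 and 70.1 FPKM in the monocultures and 9.58, 10.1 and 10.5 FPKM in the cocultures (log2 change -2.60 ± 0.063), against -0.081 ± 0.063 in fed KO cells. Falls of similar size were seen for Znhit6, an assembly factor of box C/D small nucleolar particles (-2.61 ± 0.073), Tsr2, a ribosome maturation factor (-2.59 ± 0.12), and Trmt61a, a tRNA methyltransferase (-2.49 ± 0.14). Angptl8, a secreted regulator of lipoprotein lipase, fell by 2.70 ± 0.15.

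**Figure D2:**
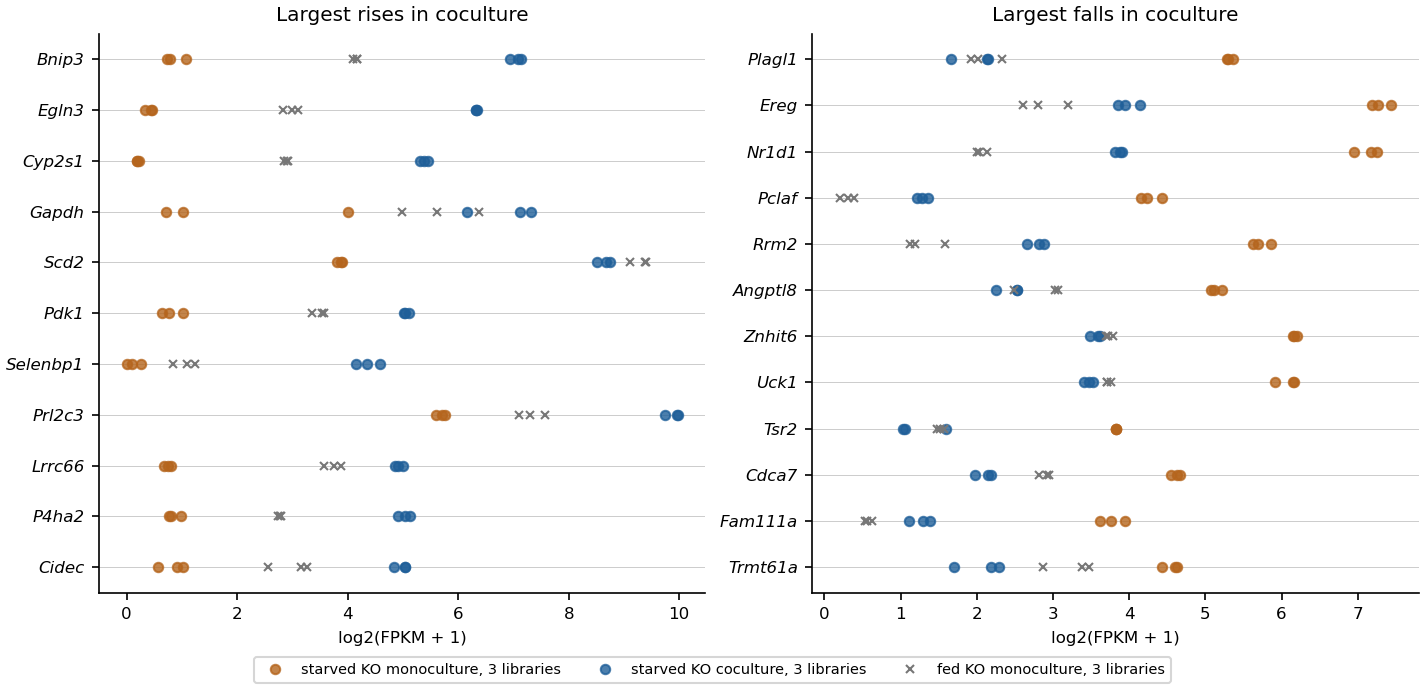
Level of 11 of the 12 genes with the largest rises (left) and the 12 with the largest falls (right) in each library, as log2(FPKM + 1). Brown points are the 3 starved KO monocultures, blue points the 3 starved KO cocultures and grey crosses the 3 fed KO monocultures. Blue and brown are apart for all 23 genes because the rule that named them required it. For Gapdh the 3 monocultures are spread from 0.633 to 15.0 FPKM.

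Hypoxia-response genes rose almost as a body. Of 28 tested members of the list 26 were higher and 0 lower, with a median log2 change of 2.57. Besides Bnip3, Egln3, Pdk1 and P4ha2, the rises ran from 0.24 for Vegfa, the vascular growth factor, to 3.86 for Ankrd37. Hif1a, the regulatory subunit of the hypoxia-inducible factor (0.038), and Anxa2 (-0.057) did not pass. The median in starved WT cells was 1.57 (24 members higher, 0 lower) and in fed KO cells 1.74 (25 higher, 0 lower). In starved KO cells the change was more positive than in starved WT cells for 20 and more negative for 4, and against fed KO cells for 18 and 6. The mean level of the list, as log2(FPKM + 1), was 3.29, 3.33 and 3.31 in the starved KO monocultures, 4.21, 4.23 and 4.25 in the fed KO monocultures, 5.73, 5.73 and 5.75 in the starved KO cocultures and 5.69, 5.68 and 5.68 in the starved WT cocultures. By this mean the starved KO monocultures were the lowest of these groups, and the starved cocultures of both genotypes stood close together. The summed FPKM of the list ranked the monocultures otherwise. It was 1488 to 1522 in starved KO, 1136 to 1354 in fed KO, 1082 to 1101 in starved WT and 1110 to 1151 in fed WT monocultures.

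Glycolytic genes moved with them. Of 21 tested members 18 rose and 1 fell (median log2 change 2.33). Pfkp, the platelet-type phosphofructokinase, read 2.28, 2.33 and 2.20 FPKM in the monocultures and 31.0, 32.5 and 31.5 FPKM in the cocultures (log2 change 3.32 ± 0.049, adjusted p = 8.39e-21). Aldoc, an aldolase, read 0.0349, 0.175 and 0.0576 FPKM in the monocultures and 12.9, 10.2 and 9.57 FPKM in the cocultures (log2 change 3.44 ± 0.11). Both were clear of overlap, as were 69.6% of all tested genes, and Aldoc changed by only 0.30 ± 0.11 in starved WT cells. Ldha, lactate dehydrogenase A (2.62 ± 0.076), Pgk1, phosphoglycerate kinase (1.96 ± 0.052), and Slc2a1, the glucose transporter GLUT1 (1.75 ± 0.061), were among the others that rose. Eno3, the muscle enolase, was the 1 member that fell, with 5.24, 5.17 and 5.01 FPKM in the monocultures and 1.46, 1.48 and 1.28 FPKM in the cocultures (log2 change -1.35 ± 0.15), and Pfkfb3 (-0.0016) and the monocarboxylate transporter Slc16a1 (-0.071) did not pass. Gapdh read 0.633, 15.0 and 1.02 FPKM in the monocultures and 158, 138 and 70.6 FPKM in the cocultures (log2 change 4.96 ± 1.26, adjusted p = 0.00167). Its spread within groups was the widest of the named genes, and because many near-identical copies of Gapdh exist in the genome its reads may be split, so its change is uncertain. With hepatocytes 17 members were higher and 1 lower in starved WT cells (median 1.43), and 16 were higher and 1 lower in fed KO cells (median 1.25). Compared with starved WT cells, the change in starved KO cells was more positive for 11 and more negative for 4, and the counts against fed KO cells were 12 and 3.

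The promoters of these genes were searched for ACGTG, the core of the hypoxia response element, on both strands in the 250 bases before the transcript start (RefSeq, GRCm38.p6). It was found in 17 of 25 matched hypoxia-list promoters (68%) and in 9 of 23 of the glycolysis list (39.1%), beside 16.6% of all 32851 promoters and 22.8% of the 10812 promoters that matched tested genes by symbol. The shares follow from which genes the lists hold, and the hypoxia list holds known hypoxia-response genes. Among the promoters with the core were those of Hif1a, Anxa2, Pfkfb3 and Slc16a1, which did not pass. The promoters of Bnip3 and Egln3, the 2 genes with the largest rises on the log2(FPKM + 1) scale, are shown with the core in capitals, which in Bnip3 overlaps itself on both strands as CACGTG.
Bnip3, chr7:138909507-138909756, minus strand: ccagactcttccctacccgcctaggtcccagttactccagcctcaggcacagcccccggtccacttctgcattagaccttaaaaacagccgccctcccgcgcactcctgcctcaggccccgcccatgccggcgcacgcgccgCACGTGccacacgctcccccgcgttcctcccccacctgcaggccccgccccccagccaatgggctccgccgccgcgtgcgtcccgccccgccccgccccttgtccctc
Egln3, chr12:54203875-54204124, minus strand: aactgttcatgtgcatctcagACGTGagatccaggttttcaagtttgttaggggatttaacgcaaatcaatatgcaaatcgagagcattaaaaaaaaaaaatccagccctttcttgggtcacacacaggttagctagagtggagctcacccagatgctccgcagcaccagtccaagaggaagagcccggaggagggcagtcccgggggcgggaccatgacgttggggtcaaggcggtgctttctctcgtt

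Cholesterol synthesis genes rose with hepatocytes in starved KO cells, and many fell in the other settings. Of 26 members 25 were higher and 0 lower (median log2 change 0.89), and only Mvd (0.014), a mevalonate pathway enzyme, did not pass. Idi1, an isomerase of the isoprenoid steps, read 2.70, 1.51 and 2.31 FPKM in the monocultures and 8.24, 13.8 and 10.0 FPKM in the cocultures (log2 change 1.87 ± 0.18). Hmgcs1, the synthase that feeds the mevalonate pathway, read 8.57, 7.55 and 7.92 FPKM in the monocultures and 21.7, 27.0 and 25.8 FPKM in the cocultures (log2 change 1.52 ± 0.10, adjusted p = 7.20e-11). No coculture overlapped a monoculture for Idi1 or Hmgcs1, as for 69.6% of all tested genes. Sqle, squalene epoxidase, rose by 0.49 and Srebf2, the transcription factor of the pathway, by 1.01. Starved WT cells had 0 members higher and 20 lower with hepatocytes (median -0.50), and fed KO cells 0 and 13 (median -0.27). In starved KO cells the change was more positive than in starved WT cells for 26 and more negative for 0, and against fed KO cells for 25 and 0. The mean list level was 2.83, 2.84 and 2.84 in the starved KO monocultures and 3.83, 3.83 and 3.85 in the cocultures, against 4.55, 4.59 and 4.56 in the fed KO monocultures. Against those fed monocultures, a comparison in which 5373 genes (44.5%) passed, 2767 higher (22.9%) and 2606 lower (21.6%), or 2701 in a fit of these groups alone, the starved cocultures had 25 members lower and 0 higher (median -0.71). That comparison uses the same 3 cocultures.

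Fatty acid genes were mixed. Of 18 tested members 11 rose and 4 fell (median 0.63). Fads2, a desaturase of polyunsaturated fatty acids, read 3.25, 4.03 and 4.12 FPKM in the monocultures and 23.2, 23.0 and 19.3 FPKM in the cocultures (log2 change 2.25 ± 0.087). Scd1 read 30.5, 26.9 and 27.0 FPKM in the monocultures and 86.4, 106 and 98.3 FPKM in the cocultures (log2 change 1.75 ± 0.076). Both genes fell with hepatocytes in starved WT cells, by 0.76 and 0.98. Fasn, fatty acid synthase, rose by 0.36, while Acaca, acetyl-CoA carboxylase, fell by 0.35. The acyl-CoA synthetases Acsl1 (-0.60 ± 0.059) and Acsl4 (-0.43 ± 0.11) and the acyltransferase Gpam (-0.55 ± 0.077) also fell. In starved WT cells the median was -0.39, with 1 member higher and 12 lower, and in fed KO cells it was -0.23, with 3 higher and 10 lower. The sterol element TCACNCCAC was found, on either strand, in 1 of 18 matched cholesterol-list promoters (5.56%), that of Hmgcs1, and in 1 of 19 of the fatty acid list (5.26%), that of Acsl1, which fell. It was in 1.05% of all promoters and 0.999% of those of tested genes. The Hmgcs1 promoter is shown with the element in capitals.
Hmgcs1, chr13:119690101-119690350, plus strand: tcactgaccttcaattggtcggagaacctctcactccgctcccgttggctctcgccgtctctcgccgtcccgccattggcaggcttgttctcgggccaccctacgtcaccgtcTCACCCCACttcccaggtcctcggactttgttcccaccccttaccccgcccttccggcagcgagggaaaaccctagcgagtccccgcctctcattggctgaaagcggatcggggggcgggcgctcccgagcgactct

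**Figure D3:**
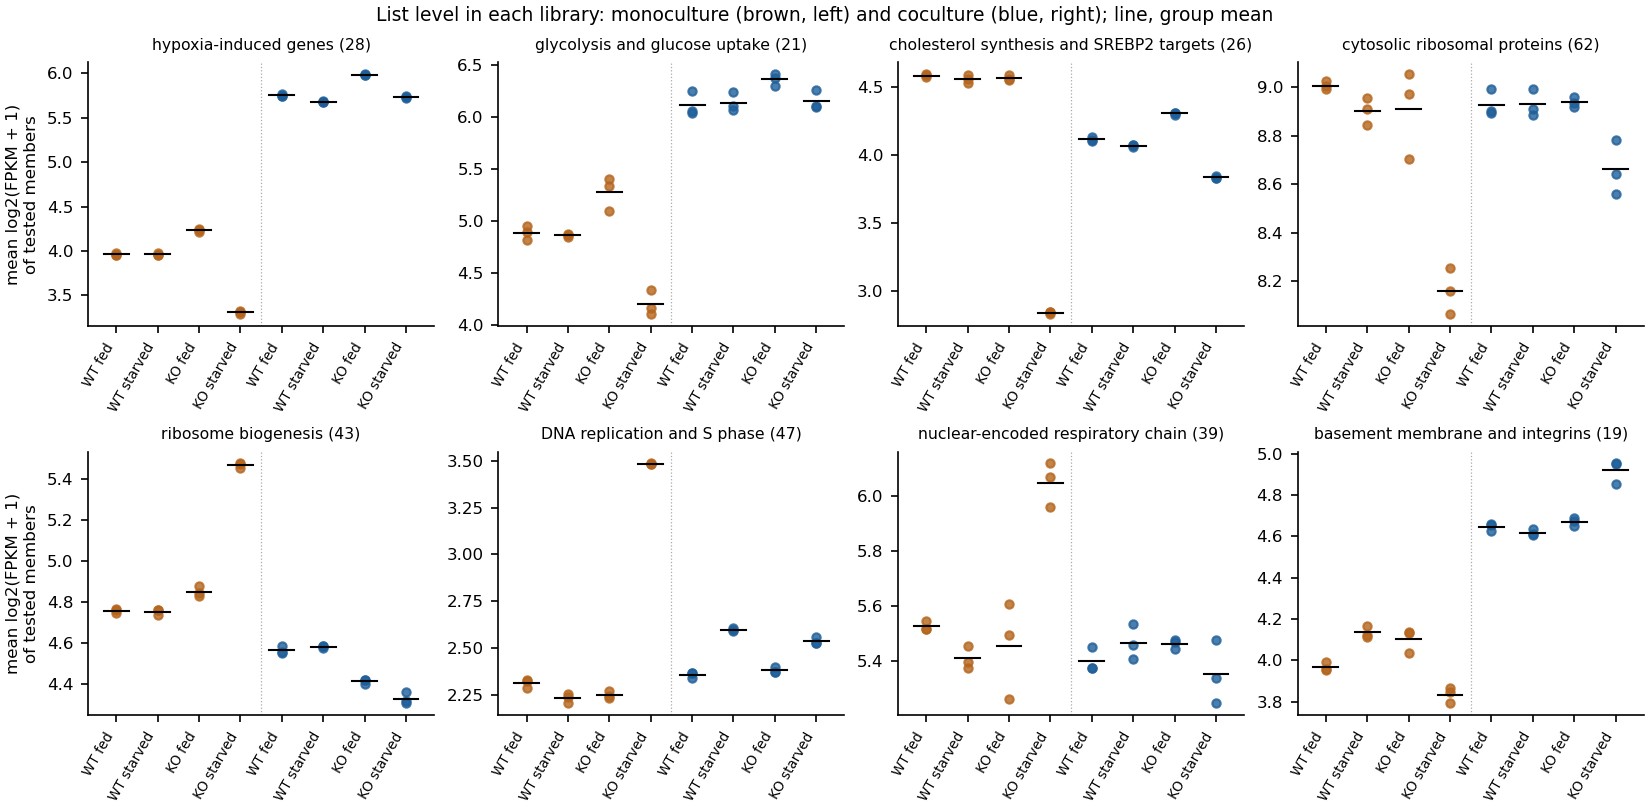
Mean log2(FPKM + 1) over the tested members of 8 gene lists in each of the 24 libraries, with monocultures in brown on the left, cocultures in blue on the right and a line at each group mean. Numbers in brackets are tested members. By this mean the starved KO monocultures are the lowest group for hypoxia, glycolysis, cholesterol and ribosomal protein genes. They are the highest for ribosome biogenesis, S phase and respiratory chain genes.

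Genes of DNA replication fell together in starved KO cells. Of 47 tested members 0 were higher and 43 lower, with a median log2 change of -0.85. Mcm5, a subunit of the replicative helicase, read 20.1, 21.4 and 20.9 FPKM in the monocultures and 3.69, 3.34 and 3.27 FPKM in the cocultures (log2 change -2.30 ± 0.087, adjusted p = 1.21e-14). Mcm3, of the same helicase, read 42.7, 47.0 and 48.0 FPKM in the monocultures and 9.70, 9.91 and 9.29 FPKM in the cocultures (log2 change -2.14 ± 0.070). As with Rrm2 and 69.6% of all tested genes, no library of one group reached the other. Cdc6, which loads the helicase, fell by 2.12, and Pcna, the replication clamp, by 0.93. Prim2 (0.14), Pold1 (0.13), Tk1 (-0.14) and Lig1 (-0.10) did not pass. The median in starved WT cells was 0.31 (27 members higher, 2 lower) and in fed KO cells 0.040 (15 higher, 4 lower). Compared with starved WT cells, the change in starved KO cells was more positive for 0 and more negative for 44, and the counts against fed KO cells were 0 and 42. The mean list level was 3.48, 3.48 and 3.49 in the starved KO monocultures and 2.53, 2.56 and 2.53 in the cocultures. It was 2.27, 2.23 and 2.25 in the fed KO monocultures, below both, and 24 members were higher and 2 lower in starved cocultures than there. The E2F motifs TTTCCCGC and TTTGGCGC, counted as 1 and on both strands, were found in 6 of 40 matched promoters of the list (15%), in 1.30% of all promoters and in 2.55% of those of tested genes. The promoters of the first 2 members by size of fall among those with a motif are shown with it in capitals.
Mcm5, chr8:75109259-75109508, plus strand: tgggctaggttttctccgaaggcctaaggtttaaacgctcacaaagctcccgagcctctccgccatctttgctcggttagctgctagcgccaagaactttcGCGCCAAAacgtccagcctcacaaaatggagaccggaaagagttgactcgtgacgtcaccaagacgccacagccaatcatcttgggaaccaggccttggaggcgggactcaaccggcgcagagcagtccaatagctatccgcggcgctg
Cdc6, chr11:98907901-98908150, plus strand: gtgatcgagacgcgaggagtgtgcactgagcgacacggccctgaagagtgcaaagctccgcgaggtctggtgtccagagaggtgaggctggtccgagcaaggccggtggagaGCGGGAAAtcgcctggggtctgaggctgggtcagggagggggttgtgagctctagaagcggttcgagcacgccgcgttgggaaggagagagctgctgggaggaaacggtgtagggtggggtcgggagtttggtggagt

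Mitotic genes were split. Of 37 tested members 23 fell and 5 rose (median -0.36). Top2a, topoisomerase IIα, read 18.3, 14.7 and 15.3 FPKM in the monocultures and 3.26, 3.77 and 3.25 FPKM in the cocultures (log2 change -1.95 ± 0.076, adjusted p = 2.17e-14). Mki67, the proliferation antigen Ki-67, read 6.74, 5.79 and 6.09 FPKM in the monocultures and 0.795, 1.11 and 1.03 FPKM in the cocultures (log2 change -1.87 ± 0.088). Ccna2, cyclin A2, read 9.85, 9.41 and 9.35 FPKM in the monocultures and 2.27, 2.59 and 2.61 FPKM in the cocultures (log2 change -1.595 ± 0.12). These 3 act in or mark S and G2 phase as well as mitosis. Their groups did not overlap, as for 69.6% of all tested genes. Pttg1, the securin of sister chromatids, read 1.20, 1.19 and 1.38 FPKM in the monocultures and 4.17, 3.10 and 4.11 FPKM in the cocultures (log2 change 1.08 ± 0.10). Ube2c, of the anaphase-promoting machinery, rose by 0.56 ± 0.099, and Cdc25c, a mitotic phosphatase, by 0.49 ± 0.16, a call that was lost under quantile normalization (0.31, adjusted p = 0.103) and without coculture replicate 2 (0.35, adjusted p = 0.0766). With hepatocytes 31 members were higher and 0 lower in starved WT cells (median 0.41), and 13 were higher and 0 lower in fed KO cells (median 0.13).

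Ribosome assembly factors and ribosomal proteins moved in opposite directions. Of 43 biogenesis genes 40 fell and 1 rose (median log2 change -1.14). Rrp12, needed for export of both subunits, read 24.4, 27.3 and 27.8 FPKM in the monocultures and 4.998, 3.54 and 3.67 FPKM in the cocultures (log2 change -2.45 ± 0.12, adjusted p = 4.06e-13). Bop1, of the large-subunit PeBoW complex, read 54.7, 66.8 and 67.0 FPKM in the monocultures and 13.7, 9.52 and 12.03 FPKM in the cocultures (log2 change -2.33 ± 0.12). Ddx21, a nucleolar RNA helicase, read 143, 118 and 122 FPKM in the monocultures and 25.8, 29.3 and 27.3 FPKM in the cocultures (log2 change -2.17 ± 0.079). All 3 genes were lower in each coculture than in each monoculture, and 69.6% of all tested genes were likewise without overlap. Myc, the growth regulator that is known to drive ribosome genes, read 285, 319 and 322 FPKM in the monocultures and 132, 113 and 127 FPKM in the cocultures (log2 change -1.31 ± 0.067, adjusted p = 1.21e-12). Npm1, the nucleolar protein nucleophosmin, was the 1 member that rose, with 396, 330.3 and 329 FPKM in the monocultures and 754, 763 and 698 FPKM in the cocultures (log2 change 1.07 ± 0.067). Starved WT cells had 1 member higher and 15 lower with hepatocytes (median -0.15), and fed KO cells 0 and 34 (median -0.45). In starved KO cells the change was more positive than in starved WT cells for 1 and more negative for 40, and against fed KO cells for 2 and 33.

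Of 62 cytosolic ribosomal protein genes 40 rose and 1 fell (median 0.52). Rps4x read 327, 301 and 300.4 FPKM in the monocultures and 785, 835 and 784 FPKM in the cocultures (log2 change 1.37 ± 0.050, adjusted p = 7.85e-15), and Fau, whose product carries ribosomal protein S30, read 543, 682 and 686 FPKM in the monocultures and 1541, 1549 and 1618 FPKM in the cocultures (log2 change 1.31 ± 0.092). Rpl37 read 62.2, 73.7 and 70.4 FPKM in the monocultures and 181, 184 and 178 FPKM in the cocultures (log2 change 1.39 ± 0.12). The groups were apart for all 3, as for 69.6% of all tested genes. Rpl34 was the 1 member that fell (-0.36 ± 0.10), a call lost under median centring (-0.22, adjusted p = 0.0567). Many ribosomal protein genes have processed copies in the genome, so single values are uncertain. With quantile normalization 31 members were higher and 8 lower (median 0.23), and with median centring 45 were higher and 0 lower (median 0.67). In starved WT cells the median was 0.043, with 1 member higher and 0 lower, and in fed KO cells it was 0.0083, with 0 higher and 7 lower. The mean list level was 8.06, 8.25 and 8.16 in the starved KO monocultures, 8.78, 8.56 and 8.64 in the cocultures and 8.70, 9.05 and 8.97 in the fed KO monocultures.

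Aminoacyl-tRNA synthetases, which charge tRNAs, were mostly lower, with 14 of 20 falling and 4 rising (median -0.29). Yars, for tyrosine, read 68.3, 72.9 and 72.3 FPKM in the monocultures and 27.3, 27.1 and 28.7 FPKM in the cocultures (log2 change -1.33 ± 0.041, adjusted p = 6.31e-16). Aars, for alanine, read 103, 114 and 110.4 FPKM in the monocultures and 56.8, 58.8 and 59.0 FPKM in the cocultures (log2 change -0.89 ± 0.042). Qars, for glutamine, went the other way with 11.2, 12.7 and 10.9 FPKM in the monocultures and 32.4, 33.5 and 34.4 FPKM in the cocultures (log2 change 1.45 ± 0.051). None of the 3 overlapped between groups, as was so for 69.6% of all tested genes. Sars, which charges tRNA with serine, rose by 0.15, while Gars, for glycine (-0.022), and Vars, for valine (0.029), did not pass. The median in starved WT cells was 0.0092 (0 members higher, 0 lower) and in fed KO cells -0.016 (2 higher, 5 lower).

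Enzymes that make and use serine showed no common direction. Of 24 tested members 9 rose and 12 fell (median -0.079), and the sign of the median changed with the processing. Over all tested genes 35% rose and 36.3% fell, and the counts of this and the other mixed lists are to be read against those shares. Psat1, the transaminase after Phgdh, read 173, 168 and 169.8 FPKM in the monocultures and 163, 183 and 169.6 FPKM in the cocultures (log2 change 0.015 ± 0.054, adjusted p = 0.815), with overlapping groups. Psat1 rose in starved WT cells by 0.54 ± 0.054 and in fed KO cells by 0.35 ± 0.054, and its change in starved KO cells was less positive, with log2 differences of -0.52 (adjusted p = 7.92e-06) and -0.34 (adjusted p = 8.60e-04). Psph, the last step of serine synthesis, read 39.4, 44.4 and 42.3 FPKM in the monocultures and 37.3, 36.1 and 38.0 FPKM in the cocultures (log2 change -0.17 ± 0.061, adjusted p = 0.0159), a call that median centring (-0.029, adjusted p = 0.668) and the loss of coculture replicate 2 (-0.15, adjusted p = 0.0531) or monoculture replicate 2 (-0.13, adjusted p = 0.0848) ended. The serine hydroxymethyltransferases, which turn serine into glycine and a one-carbon unit, diverged. Shmt2, the mitochondrial enzyme, read 42.6, 48.6 and 48.0 FPKM in the monocultures and 106, 91.9 and 106 FPKM in the cocultures (log2 change 1.11 ± 0.076, adjusted p = 1.06e-10). Shmt1, the cytosolic enzyme, read 11.1, 11.4 and 11.9 FPKM in the monocultures and 3.23, 3.69 and 3.84 FPKM in the cocultures (log2 change -1.44 ± 0.076, adjusted p = 2.14e-12). Neither pair of groups overlapped, as for 69.6% of all tested genes. The Shmt2 change was larger than in starved WT cells (-0.17 ± 0.076 there, adjusted p of the difference 5.10e-09).

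Other folate enzymes moved both ways. Mthfd1l, the mitochondrial formate-releasing synthetase, rose, with 23.6, 23.5 and 22.6 FPKM in the monocultures and 53.7, 54.9 and 54.3 FPKM in the cocultures (log2 change 1.19 ± 0.040). Aldh1l1, a formyltetrahydrofolate dehydrogenase, read 0, 0.0230 and 0.0278 FPKM in the monocultures and 2.18, 1.99 and 1.84 FPKM in the cocultures (log2 change 1.56 ± 0.089). Aldh1l2, its mitochondrial counterpart, rose by 0.70. Mtr, methionine synthase, read 10.5, 9.53 and 8.97 FPKM in the monocultures and 3.05, 3.87 and 3.26 FPKM in the cocultures (log2 change -1.28 ± 0.069). Mthfd1, the cytosolic trifunctional enzyme, and Tyms, thymidylate synthase, fell by 1.04 and 0.98. Mthfd2, a mitochondrial dehydrogenase, also fell, with 129, 131 and 130.0 FPKM in the monocultures and 94.2, 93.0 and 93.4 FPKM in the cocultures (log2 change -0.47 ± 0.041). Mitochondrial and cytosolic enzymes were thus found in both directions. Cth, cystathionine gamma-lyase, rose by 0.75 and Gldc, of the glycine cleavage system, by 0.48, while its partner Gcsh fell by 0.97.

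**Figure D4:**
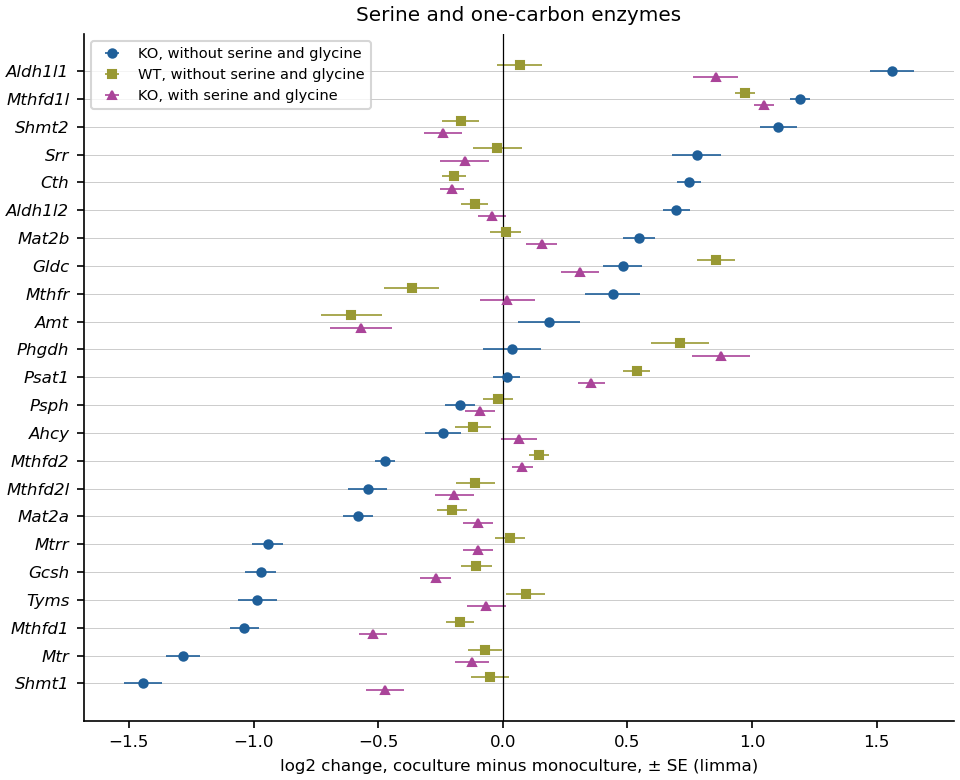
Log2 coculture change (± SE, limma, 3 libraries against 3) of 23 of the 24 tested serine and one-carbon enzymes in starved KO cells (blue circles), starved WT cells (olive squares) and fed KO cells (purple triangles). The starved KO changes plotted run from -1.44 for Shmt1 to 1.56 for Aldh1l1, with Phgdh and Psat1 near 0.

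Purine synthesis genes, whose pathway consumes glycine and one-carbon units, were mostly lower, with 9 of 15 falling and 5 rising (median -0.66). Adsl, adenylosuccinate lyase, read 32.0, 36.2 and 35.8 FPKM in the monocultures and 7.63, 9.21 and 7.14 FPKM in the cocultures (log2 change -1.99 ± 0.076, adjusted p = 1.58e-14). Atic, which completes the purine ring, read 47.5, 49.9 and 49.7 FPKM in the monocultures and 16.1, 18.0 and 16.7 FPKM in the cocultures (log2 change -1.48 ± 0.052). Prps1, the phosphoribosyl pyrophosphate synthetase, read 28.0, 23.4 and 26.0 FPKM in the monocultures and 7.77, 9.78 and 8.74 FPKM in the cocultures (log2 change -1.46 ± 0.11). The groups did not overlap for the 3, as for 69.6% of all tested genes. Adssl1 (1.45 ± 0.086), Impdh1 (0.59 ± 0.14) and Prps2 (0.52 ± 0.090) were the largest rises. With hepatocytes 4 members were higher and 3 lower in starved WT cells (median 0.020), and 3 were higher and 10 lower in fed KO cells (median -0.33).

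Of 20 genes for sphingolipids and phosphatidylserine, 9 rose and 6 fell (median -0.012, of a sign that changed with the processing). Ugcg, which makes glucosylceramide, read 17.4, 15.3 and 16.7 FPKM in the monocultures and 37.1, 44.6 and 41.2 FPKM in the cocultures (log2 change 1.26 ± 0.076). Sptlc1, a subunit of the serine palmitoyltransferase that joins serine to a fatty acid, read 18.6, 18.4 and 18.7 FPKM in the monocultures and 12.8, 14.6 and 14.7 FPKM in the cocultures (log2 change -0.39 ± 0.059), while the partner subunit Sptlc2 rose by 0.38. Pisd, which turns phosphatidylserine into phosphatidylethanolamine, fell by 0.85 ± 0.11, and Cers2, a ceramide synthase, by 0.52 ± 0.074. The transmembrane proteins Serinc3 and Serinc5 rose by 0.70 ± 0.053 and 0.65 ± 0.085.

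Of 28 tested members of the ATF4 list 10 were higher and 10 lower (median 0.026, of a sign that changed with the processing), shares near the 35% and 36.3% over all tested genes. Atf4, the transcription factor itself, read 350.4, 359 and 349 FPKM in the monocultures and 263, 138 and 197 FPKM in the cocultures (log2 change -0.87 ± 0.20, adjusted p = 6.00e-04). Ddit3, the stress factor CHOP, read 221, 229 and 226 FPKM in the monocultures and 94.3, 88.9 and 78.7 FPKM in the cocultures (log2 change -1.36 ± 0.059, adjusted p = 9.48e-14). Ppp1r15a, which restores translation after stress, read 312, 313 and 303 FPKM in the monocultures and 116, 96.4 and 104 FPKM in the cocultures (log2 change -1.55 ± 0.074). Atf5, a related factor, read 325, 403 and 404 FPKM in the monocultures and 195, 77.9 and 127 FPKM in the cocultures (log2 change -1.59 ± 0.28). For Atf4 and Atf5 coculture replicate 2 was the lowest and replicate 1 the highest. No coculture reached a monoculture for any of the 4, as for 69.6% of all tested genes. Asns, asparagine synthetase and a classical ATF4 target, read 173, 165 and 163 FPKM in the monocultures and 151, 175 and 164 FPKM in the cocultures (log2 change -0.033 ± 0.077, adjusted p = 0.716), with overlap. Klhl24 (1.67 ± 0.062), Ddit4, an inhibitor of mTORC1 (1.63 ± 0.29), and Jdp2 (1.28 ± 0.13) rose most. Starved WT cells had 5 members higher and 8 lower with hepatocytes (median -0.048), and fed KO cells 8 and 5 (median 0.00023). The motif TGATGNAAN of C/EBP-ATF sites, on either strand, was in 8 of 25 matched promoters (32%), 3.44% of all promoters and 1.90% of those of tested genes. No sequence is shown for it, since the list had no common direction.

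Amino acid transporters had 7 of 15 tested members higher and 6 lower (median -0.18). Slc7a11, the cystine transporter xCT, read 4.66, 4.12 and 3.85 FPKM in the monocultures and 32.6, 39.0 and 37.8 FPKM in the cocultures (log2 change 2.85 ± 0.089, adjusted p = 7.18e-16). Slc3a2, the heavy chain it shares with other transporters, read 103, 124 and 122 FPKM in the monocultures and 309, 264 and 296 FPKM in the cocultures (log2 change 1.31 ± 0.082). Slc7a7, a y+L light chain, read 0.738, 1.18 and 1.32 FPKM in the monocultures and 3.14, 2.86 and 3.13 FPKM in the cocultures (log2 change 0.97 ± 0.10). The groups did not overlap for these 3, as for 69.6% of all tested genes. Slc7a11 fell with hepatocytes in starved WT cells, by 0.80. Among transporters that carry serine, Slc38a2 rose by 0.83 and Slc1a4 by 0.13, and Slc1a5 fell by 0.45. Sfxn1, the mitochondrial serine carrier, read 15.8, 14.8 and 15.4 FPKM in the monocultures and 8.80, 10.9 and 8.85 FPKM in the cocultures (log2 change -0.64 ± 0.081). Slc7a1, a cationic amino acid carrier, and Slc7a6 fell by 0.64 ± 0.037 and 0.64 ± 0.043.

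Of 33 antioxidant and glutathione genes 14 rose and 10 fell (median 0.11), beside 35% and 36.3% of all tested genes. Gstm1, a glutathione transferase, read 0.309, 0.705 and 0.809 FPKM in the monocultures and 17.8, 15.98 and 19.5 FPKM in the cocultures (log2 change 3.55 ± 0.11, adjusted p = 5.45e-16). Gsta4, which acts on lipid aldehydes, read 2.29, 2.30 and 2.08 FPKM in the monocultures and 17.2, 21.2 and 16.6 FPKM in the cocultures (log2 change 2.58 ± 0.096). Gstm1 fell with hepatocytes in starved WT and fed KO cells, by 0.63 and 0.90. Gpx1, a glutathione peroxidase, read 157, 169.7 and 169 FPKM in the monocultures and 70.4, 65.6 and 76.0 FPKM in the cocultures (log2 change -1.22 ± 0.075). Gsto1 (-0.57 ± 0.043) and the ferritin light chain Ftl1 (-0.57 ± 0.16) fell as well, and Nfe2l2, which encodes NRF2, did not pass (-0.051).

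Genes of protein folding in the endoplasmic reticulum were mostly higher. Of 25 members 20 rose and 3 fell (median 0.53). Derl3, of the degradation machinery, read 0.286, 0.391 and 0.440 FPKM in the monocultures and 5.72, 3.42 and 3.31 FPKM in the cocultures (log2 change 1.88 ± 0.16). Edem1, which marks misfolded glycoproteins, read 12.9, 11.2 and 12.1 FPKM in the monocultures and 36.4, 40.6 and 39.8 FPKM in the cocultures (log2 change 1.61 ± 0.069, adjusted p = 9.11e-14). Dnajb9, a co-chaperone, read 30.0, 25.7 and 24.7 FPKM in the monocultures and 49.6, 73.6 and 70.7 FPKM in the cocultures (log2 change 1.22 ± 0.14). Xbp1, the transcription factor spliced under folding stress, rose by 1.14, whereas the stress sensors Ern1 (-1.20 ± 0.061) and Atf6 (-0.63 ± 0.071) fell. Dnajb11 fell by 0.25 ± 0.041, a call lost under median centring (-0.10, adjusted p = 0.0567) and quantile normalization (-0.098, adjusted p = 0.0631). In starved WT cells the median was 0.16, with 9 members higher and 1 lower, and in fed KO cells it was -0.15, with 2 higher and 10 lower.

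Of the cytosolic chaperones 8 of 22 were higher and 11 lower (median -0.27). Hspa8, the constitutive HSC70, read 273, 243 and 246 FPKM in the monocultures and 969.6, 1281 and 1113 FPKM in the cocultures (log2 change 2.13 ± 0.10, adjusted p = 4.05e-13). Hsp90ab1, the constitutive HSP90, read 418, 409 and 401 FPKM in the monocultures and 1354, 1494 and 1381 FPKM in the cocultures (log2 change 1.78 ± 0.054, adjusted p = 4.88e-16). Stip1, the adaptor that joins these chaperones, went the other way with 409, 398 and 393 FPKM in the monocultures and 123, 114 and 113 FPKM in the cocultures (log2 change -1.77 ± 0.042, adjusted p = 1.36e-17). No groups overlapped among the 3, as was so for 69.6% of all tested genes. Hspa1b rose by 1.73 ± 0.10, a value made uncertain by its near-identical neighbour Hspa1a, and Cct3, a chaperonin subunit, and Dnajb4 fell by 1.22 ± 0.048 and 1.14 ± 0.069.

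Lysosomal genes showed 14 of 35 tested members higher and 12 lower, with a median (0.036) whose sign changed with the processing, shares close to the 35% and 36.3% over all tested genes. The enzyme Glb1 (1.55 ± 0.088) and the autophagy protein Wipi1 (1.98 ± 0.061) were among those that rose most. The proton pump subunits Atp6v1h (-1.04 ± 0.051), Atp6v0d1 (-1.02 ± 0.041) and Atp6v1a (-0.93 ± 0.071) fell most.

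Nuclear genes of the respiratory chain fell, 32 of 39, with 1 higher (median log2 change -0.76). Cox5a, of cytochrome c oxidase, read 65.6, 74.4 and 72.3 FPKM in the monocultures and 24.9, 17.4 and 21.1 FPKM in the cocultures (log2 change -1.71 ± 0.14, adjusted p = 1.33e-09). Ndufa1, of complex I, read 27.3, 40.8 and 39.7 FPKM in the monocultures and 15.8, 8.66 and 10.1 FPKM in the cocultures (log2 change -1.58 ± 0.21). Cox7a2 read 120.2, 136 and 129 FPKM in the monocultures and 52.6, 43.2 and 50.5 FPKM in the cocultures (log2 change -1.38 ± 0.085). The groups did not overlap, as for 69.6% of all tested genes, though Ndufa1 varied between replicates in both. Atp5a1, of the ATP synthase, was the 1 member that rose (0.24 ± 0.050). The median in starved WT cells was 0.058 (3 members higher, 4 lower) and in fed KO cells -0.0017 (1 higher, 8 lower). Compared with starved WT cells, the change in starved KO cells was more positive for 1 and more negative for 29, and the counts against fed KO cells were 1 and 28. Genes of the mitochondrial genome did not follow, with 3 of 13 higher and 1 lower. mt-Co1 rose by 0.67 ± 0.13, whereas the calls of mt-Nd1 (0.25 ± 0.090), mt-Nd2 (0.32 ± 0.12) and mt-Cytb (-0.19 ± 0.077) were each lost when 1 of several libraries was left out, with values of 0.17 without monoculture replicate 2, 0.22 without coculture replicate 3 and -0.11 without coculture replicate 2. All 3 calls were also lost without a filter and when only these groups were fitted. Quantile normalization ended those of mt-Nd1 (0.056) and mt-Nd2 (0.15), and median centring that of mt-Cytb (-0.045).

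**Figure D5:**
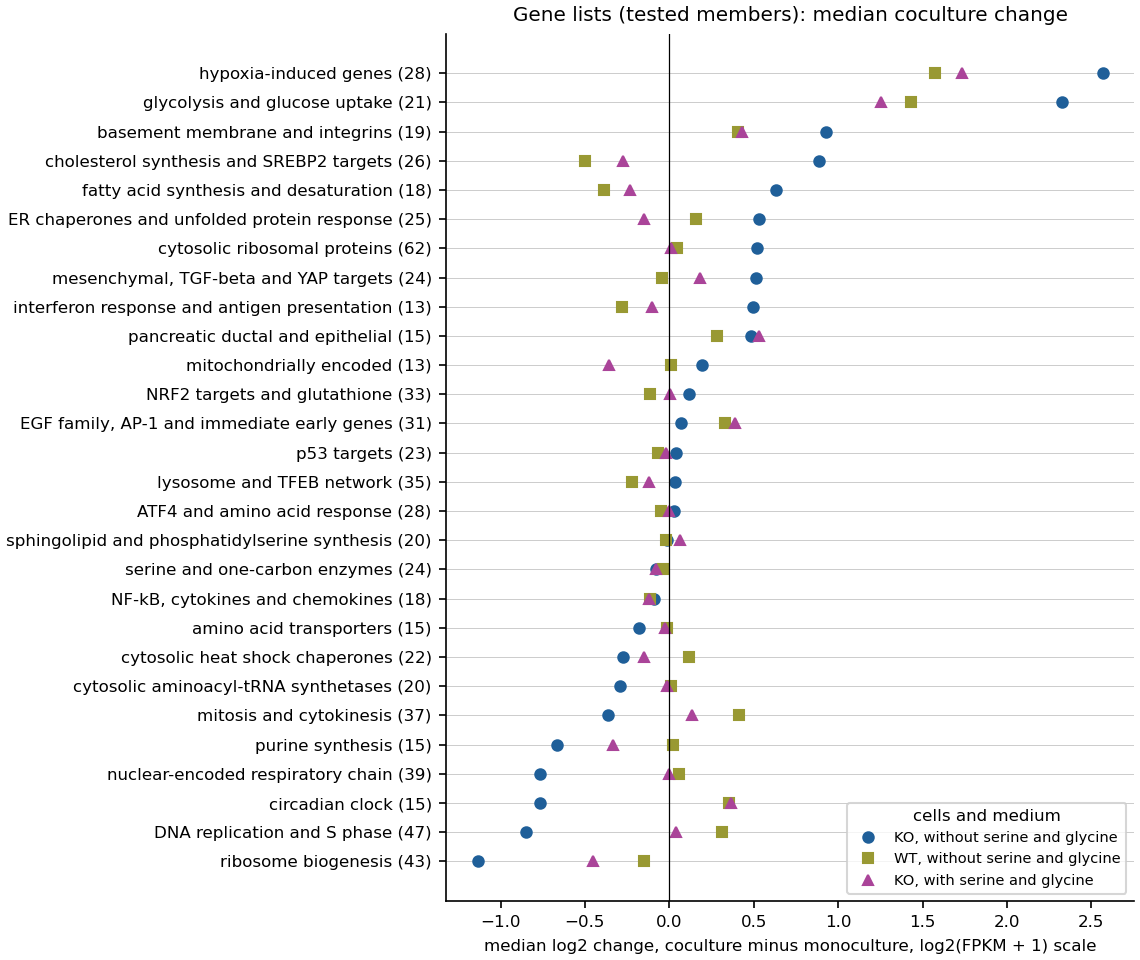
Median log2 coculture change over the tested members (number in brackets) of 28 gene lists in starved KO cells (blue circles), starved WT cells (olive squares) and fed KO cells (purple triangles). For hypoxia-induced genes all 3 medians are above 1.5, while for cholesterol synthesis the starved KO median is 0.89 and the others are -0.50 and -0.27.

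Basement membrane and integrin genes rose, 18 of 19 tested, with 1 lower (median 0.93). Nid1, the linker protein nidogen 1, read 3.92, 4.002 and 4.12 FPKM in the monocultures and 36.0, 38.7 and 36.3 FPKM in the cocultures (log2 change 2.92 ± 0.052, adjusted p = 1.62e-19). Itgb4, the integrin of hemidesmosomes, read 0.860, 0.948 and 0.724 FPKM in the monocultures and 8.10, 7.09 and 8.89 FPKM in the cocultures (log2 change 2.29 ± 0.10). Fbln2, fibulin 2, read 5.19, 7.20 and 6.48 FPKM in the monocultures and 35.9, 30.7 and 35.2 FPKM in the cocultures (log2 change 2.27 ± 0.11). All cocultures were above all monocultures for these genes, and 69.6% of all tested genes were likewise without overlap. Lamc1, a laminin chain, was the 1 that fell, with 34.5, 37.1 and 35.7 FPKM in the monocultures and 18.7, 19.9 and 19.3 FPKM in the cocultures (log2 change -0.86 ± 0.045). With hepatocytes 10 members were higher and 5 lower in starved WT cells (median 0.41), and 10 were higher and 3 lower in fed KO cells (median 0.43).

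Of 24 mesenchymal, TGF-beta and YAP genes 16 rose and 5 fell (median 0.52). Among the largest rises were those of Itga5, the fibronectin receptor chain (1.79, 2.34 and 2.38 FPKM in the monocultures and 10.7, 10.2 and 10.7 FPKM in the cocultures, log2 change 1.86 ± 0.091), and Ctgf, a YAP target (3.32, 3.09 and 3.64 FPKM in the monocultures and 13.5, 13.1 and 13.8 FPKM in the cocultures, log2 change 1.74 ± 0.067). Ctgf fell with hepatocytes in fed KO cells (-0.57 ± 0.067). Inhba, an activin subunit, read 41.5, 34.0 and 34.2 FPKM in the monocultures and 14.1, 17.7 and 15.7 FPKM in the cocultures (log2 change -1.16 ± 0.11). Smad7, an inhibitor of TGF-beta signalling, and the receptor Tgfbr1 fell by 1.18 ± 0.15 and 0.53 ± 0.0995. Vim, vimentin, rose by 1.58 and Fn1, fibronectin, by 1.62.

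Of the ductal and epithelial genes 8 of 15 tested were higher and 6 lower (median 0.48). Krt19, a ductal keratin, read 239, 289 and 279.7 FPKM in the monocultures and 1269.7, 1302 and 1268 FPKM in the cocultures (log2 change 2.25 ± 0.060, adjusted p = 7.34e-17), and it rose further in starved WT cells (3.30 ± 0.060, adjusted p of the difference 3.30e-09). Muc1, a mucin, read 0.873, 0.731 and 1.04 FPKM in the monocultures and 7.56, 6.76 and 7.57 FPKM in the cocultures (log2 change 2.14 ± 0.058). Krt20 rose by 1.85 ± 0.080. Sox9, a ductal transcription factor, read 51.4, 55.5 and 58.0 FPKM in the monocultures and 11.2, 9.26 and 10.0 FPKM in the cocultures (log2 change -2.33 ± 0.079, adjusted p = 2.45e-15). Krt7 read 79.7, 95.5 and 90.5 FPKM in the monocultures and 46.1, 45.1 and 46.1 FPKM in the cocultures (log2 change -0.93 ± 0.059), and Elf3, an epithelial ETS factor, fell by 1.08 ± 0.12. Krt7 rose in starved WT and fed KO cells, by 1.06 and 0.87.

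Growth factor and immediate early genes split into 15 higher and 13 lower of 31 tested (median 0.069). Areg, amphiregulin, a ligand of the EGF receptor like Ereg, read 857, 728 and 746 FPKM in the monocultures and 157, 249.6 and 204 FPKM in the cocultures (log2 change -1.95 ± 0.16, adjusted p = 1.10e-09), and it rose in starved WT cells (1.09 ± 0.16). Klf2 read 3.33, 6.30 and 5.09 FPKM in the monocultures and 35.1, 19.6 and 25.7 FPKM in the cocultures (log2 change 2.23 ± 0.20), Dusp1, a MAP kinase phosphatase, rose by 1.597 ± 0.10 and Fos, of AP-1, by 1.33 ± 0.069. Tgfa and Hbegf, other ligands of the same receptor, rose by 1.27 and 0.81, so the ligands did not move together.

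Of 18 tested NF-kB and cytokine genes 5 rose and 8 fell, with a median (-0.093) whose sign changed with the processing. Cxcl5, a neutrophil chemokine, read 1.25, 0.836 and 0.673 FPKM in the monocultures and 5.65, 6.797 and 6.60 FPKM in the cocultures (log2 change 1.94 ± 0.14). Lif, leukaemia inhibitory factor, read 1.49, 1.47 and 1.34 FPKM in the monocultures and 5.57, 3.56 and 4.89 FPKM in the cocultures (log2 change 1.21 ± 0.10). Il33, an alarmin cytokine, read 7.24, 6.08 and 7.02 FPKM in the monocultures and 2.27, 3.32 and 2.9997 FPKM in the cocultures (log2 change -1.02 ± 0.12). The Il33 groups did not overlap, as for 69.6% of all tested genes, and Il33 rose with hepatocytes in starved WT cells (2.18 ± 0.12). Birc3 rose by 1.05 ± 0.11, Csf1, a macrophage growth factor, fell by 1.38 ± 0.10, and Tnfaip3, which restrains NF-kB, by 0.90 ± 0.076.

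Interferon and antigen presentation genes were scarce, with 13 of 34 tested, and 8 of these rose and 1 fell (median 0.50). H2-K1, a class I heavy chain, read 27.5, 31.6 and 31.0 FPKM in the monocultures and 80.9, 63.8 and 74.6 FPKM in the cocultures (log2 change 1.25 ± 0.096), and since class I genes share sequence its level is uncertain. Cd274, which encodes PD-L1, read 1.15, 0.803 and 1.16 FPKM in the monocultures and 2.81, 3.67 and 3.32 FPKM in the cocultures (log2 change 1.07 ± 0.11), against -1.43 ± 0.11 in starved WT cells. Tapbp, of the peptide-loading complex, rose by 1.15 ± 0.11 and Ifi35 fell by 0.66 ± 0.14.

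Clock genes fell in the main, 11 of 15 tested, with 3 higher (median -0.77). Besides Nr1d1, Ciart, a clock repressor, read 46.3, 50.7 and 54.3 FPKM in the monocultures and 28.0, 19.5 and 26.3 FPKM in the cocultures (log2 change -1.02 ± 0.10) and Clock, of the activating arm, read 21.7, 17.4 and 17.9 FPKM in the monocultures and 7.53, 10.3 and 8.86 FPKM in the cocultures (log2 change -1.02 ± 0.11). Bhlhe40, a repressor that also responds to hypoxia, read 20.9, 22.1 and 23.0 FPKM in the monocultures and 61.9, 65.4 and 66.3 FPKM in the cocultures (log2 change 1.51 ± 0.047). Activators and repressors of the clock were both among the genes that fell. Bhlhe41 (0.54 ± 0.13) and Nfil3 (0.39 ± 0.057) rose. Starved WT cells had 8 members higher and 2 lower with hepatocytes (median 0.35), and fed KO cells 9 and 1 (median 0.37).

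The p53 list showed 7 of 23 tested members higher and 7 lower, with a median (0.038) whose sign changed with the processing, and these shares were not above the 35% and 36.3% over all tested genes. Pmaip1, the death protein NOXA (1.42 ± 0.087), Ccng1 (1.06 ± 0.10) and Mdm2, the p53 ligase (0.84 ± 0.090), rose most. Trp53 itself read 4.12, 4.91 and 4.82 FPKM in the monocultures and 0.953, 1.504 and 1.74 FPKM in the cocultures (log2 change -1.24 ± 0.13), and Aen (-1.38 ± 0.068) and Rrm2b (-0.60 ± 0.079) fell.

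Set beside fed KO cells without hepatocytes, the starved cocultures did not hold the same levels in every group of genes. Hypoxia genes were higher for 25 of 28 members and lower for 1 (median 1.40), and glycolytic genes for 16 and 2 of 21 (median 0.93). Ribosome biogenesis genes were lower for 40 of 43 (median -0.51), and ribosomal protein genes for 24 of 62 with 0 higher (median -0.25). Mitotic genes were higher for 35 of 37 (median 0.89). Scd2 was lower, 401 ± 32.2 FPKM against 631 ± 70.9 (SD, n = 3, log2 difference -0.65 ± 0.066), and Bnip3 was higher, 132 ± 9.25 against 16.7 ± 0.571 (2.91 ± 0.069). These values share the 3 cocultures with the main comparison, so they are not independent of it.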

How the data were processed

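RNA-seq of 24 libraries was analysed, of which 6 make up the comparison described and the others serve as matched settings. The authors deposited 1 table of FPKM for 54532 genes with Ensembl identifiers, symbols, GRCm38 positions and lengths. Per the submitters' processing notes, HISAT2 and the build GRCm38 (mm10) were used. The HISAT2 version, read counter, annotation release and strand setting are not given here in any source. The deposited FPKM times length came out as whole reads for 100% of values within 0.01 read, which gave 15740081 to 23479425 reads per library; the total used for scaling was 0.969 to 1.068 times a library's own total, so depth differed little and low genes carry the largest counting error. The table had 0 columns of other samples.

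From these values, genes at 1 FPKM in at least 3 libraries (12061) were tested as log2(FPKM + 1), a scale that understates changes of low genes, with limma 3.58.1 in R 4.3.3. The moderated test with a mean-variance trend was two-sided, with 8 group means, 16 residual degrees of freedom, no replicate block and Benjamini-Hochberg adjustment over all tested genes at 0.05. Interaction terms tested whether changes differed between settings. The test was checked on simulated data. After ± stand standard errors for log2 changes and SDs for FPKM.

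Genes were named by rule: Phgdh, the 12 largest rises and falls among called protein-coding genes at 5 FPKM or more without overlap, 3 per direction in each interaction and in each list, and Psat1, Psph, Shmt1, Shmt2, Mthfd2, Atf4, Asns, Ddit3 and Alb. Some genes that the rule names are not reported or plotted here, though list counts and medians include them. Other list members complete a count or span a range and were chosen after their values were seen. Members and lists were chosen with earlier results of these data known. Lists are described by counts and medians, with no test of the list. Promoters were matched by symbol to RefSeq (GRCm38.p6). Alternatives covered the pseudocount (0.1), the filter (none, or 5 FPKM), the replicate block, 2 other normalizations, the trend, voom on recovered reads, fits on fewer groups and leaving out each library. One more, without replicate 1 of the starved and of the fed KO monocultures, was added after seeing the data.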

Additional observations from a re-analysis of the deposited data

Results flagged for a closer look

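The change with hepatocytes differed between settings in 2 tests of the difference itself, limma interaction terms with Benjamini-Hochberg adjustment. Between starved KO and starved WT cells 7343 genes differed (60.9% of those tested), and between starved and fed KO cells 6962 did (57.7%). 

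Against starved WT cells, the largest positive differences in log2 change were 4.63 for Scd2, 4.44 for Slco4a1 and 4.18 for Gstm1. Slco4a1, an organic anion transporter, read 0.901, 1.14 and 0.836 FPKM in the monocultures and 14.5, 11.95 and 15.2 FPKM in the cocultures, and it changed by -1.52 ± 0.081 in starved WT and by -1.499 ± 0.081 in fed KO cells. The largest negative differences were -4.82 for Rrm2, -4.20 for Ereg and -3.95 for Pclaf, which rose with hepatocytes in starved WT cells by 1.88, 0.88 and 0.96.

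Against fed KO cells, the largest positive differences were 4.71 for Gapdh, 4.68 for Scd2 and 4.48 for Vnn1. The Gapdh difference missed the threshold when any 1 of 6 libraries was left out (log2 values of 4.08 to 4.59 in those fits), and its near-identical copies make it uncertain. Vnn1, a pantetheinase, read 0.801, 0.645 and 0.830 FPKM in the monocultures and 5.53, 7.28 and 7.19 FPKM in the cocultures, and it fell with hepatocytes by 2.37 ± 0.13 in fed KO cells. The largest negative differences were -4.69 for Sprr1a, -4.03 for Nr1d1 and -3.52 for Ereg. Sprr1a, a cornified envelope protein, read 834, 905 and 905 FPKM in the monocultures and 221, 220.3 and 215 FPKM in the cocultures, and it rose by 2.69 ± 0.058 in fed KO cells.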

How the results depend on the processing

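The count of 8594 genes kept within 1.5 times under every alternative, from 6180 with a 5 FPKM filter to 9818 without a filter, and was 8162 to 8380 with 1 library left out and 8737 without the 2 monoculture libraries named in the methods, of which 8290 were among the 8594. Fitting only the groups of a comparison gave 2840 genes in place of 4824 in fed KO cells and 2701 in place of 5373 for starved cocultures against fed monocultures, but 4521 in place of 3386 in starved WT cells. Of 168 named genes 158 kept direction and side of the threshold throughout. Phgdh, Psat1 and Asns, which did not pass, changed sign: Phgdh was -0.010 with voom, -0.41 with quantile normalization, -0.048 without the 2 monocultures and -0.063 to 0.15 with 1 library left out, Psat1 was -0.033 with voom and -0.031 to 0.052, and Asns 0.11 with median centring and -0.085 to 0.024. Psat1 passed under median centring (0.16, adjusted p = 0.0249). Calls of Psph, Cdc25c, Dnajb11, Rpl34, mt-Cytb, mt-Nd1 and mt-Nd2 were lost under 1 or more alternatives. For mt-Cytb, leaving out monoculture replicate 1 also ended the call (-0.11). The mt-Nd1 call was also lost without coculture replicate 3 (0.21) or monoculture replicate 3 (0.20). The mt-Nd2 call was also lost without coculture replicate 2 (0.27), monoculture replicate 2 (0.24) or monoculture replicate 3 (0.29). Unless stated, the cause was not tested. With the replicate number as a block 8491 genes passed, 8468 of them among the 8594. Deviations of libraries with the same number had correlations of -0.34, -0.26 and -0.0097, and those with different numbers ran from -0.15 to 0.33. Deviations from a group mean cancel out within the group, so these correlations are tied together. They cannot decide whether the numbers pair the samples. Depth of 15740081 to 19044371 reads limits genes near 1 FPKM most.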

Other observations

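Genes outside the lists were also among the rises, and those given here were chosen after their values were seen. Igfbp7, a secreted binder of growth factors, read 0.847, 1.37 and 0.778 FPKM in the monocultures and 24.5, 20.4 and 24.02 FPKM in the cocultures (log2 change 3.59 ± 0.11, limma), against -0.13 ± 0.11 in starved WT cells. Igfbp3, of the same family of binding proteins, read 29.7, 33.4 and 34.6 FPKM in the monocultures and 289, 313 and 306 FPKM in the cocultures (3.18 ± 0.055). Idh1, the cytosolic isocitrate dehydrogenase that makes NADPH, read 3.88, 3.04 and 3.21 FPKM in the monocultures and 34.7, 37.1 and 37.0 FPKM in the cocultures (3.09 ± 0.062), against -0.43 ± 0.062 in starved WT cells. In none of the 3 did a coculture reach a monoculture, and 69.6% of all tested genes were likewise without overlap. Ephx2, an epoxide hydrolase of lipids, rose by 3.66 ± 0.084, Gsn, the actin-severing protein gelsolin, by 3.27 ± 0.088, and Clu, the secreted chaperone clusterin, by 2.46 ± 0.052.

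Srm, Azin1 and Cycs were among the falls outside the lists. Srm, spermidine synthase, read 122, 159.9 and 154 FPKM in the monocultures and 40.3, 43.2 and 46.3 FPKM in the cocultures (-1.71 ± 0.10). Azin1, which protects ornithine decarboxylase from breakdown, read 43.2, 32.7 and 34.0 FPKM in the monocultures and 5.75, 7.46 and 6.999 FPKM in the cocultures (-2.28 ± 0.093). Cycs, cytochrome c, read 65.4, 60.6 and 59.8 FPKM in the monocultures and 12.7, 13.8 and 14.1 FPKM in the cocultures (-2.11 ± 0.073). Each coculture was below each monoculture for these genes, and 69.6% of all tested genes were likewise without overlap. The 3 were also chosen after their values were seen and stand for no tested group.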
